A study of Homo sapiens with 4 samples.

Results

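The core TGF-beta pathway was examined in 2 human squamous cell carcinoma lines of the head and neck by taking every probe for 10 genes: TGFB1, TGFB2, TGFBR1, TGFBR2, SMAD2, SMAD3, SMAD4, SMAD7, SKIL and TGFBI. The genes were chosen by gene name, a rule that uses no measured value, with earlier results of these data known. They were represented by 15 of the 41000 probes of the array (51 of 43376 non-control spots), which carried 30982 gene names in all. FaDu is an established line from a carcinoma of the hypopharynx and HSC3 is one from a carcinoma of the tongue. Each line was transfected with miR-489, with miR-504 or with a control miRNA, and total RNA was taken after 72 h. Each of the 4 two-colour Agilent arrays held the miRNA transfectant in Cy5 (red) and the control transfectant of the same line in Cy3 (green), so that there was 1 array for each combination of line and miRNA. No dye swap was made (0 of 4 arrays), and no condition had a replicate array. The labels do not say whether the 2 control RNAs of a line came from separate cultures, and each line is a single model grown in culture.

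TGF-beta ligands are secreted in a latent form and, once active, bring together the type II receptor TGFBR2 and the type I receptor TGFBR1. The type I receptor phosphorylates SMAD2 and SMAD3, which join SMAD4 and enter the nucleus to change transcription. SMAD7 and SKIL (also called SnoN) hold the signal back, the former at the receptor and the latter on the SMAD complexes at DNA, and TGFBI is a secreted matrix protein named for its induction by TGF-beta. In normal squamous epithelium the pathway restrains growth, and it is often altered in carcinomas of this type.

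The transfected agents differed in their seeds, the bases 2 to 8 through which a miRNA pairs with its targets, and the mature sequences from RefSeq (GRCh38.p14) are shown with the seed in capitals so that this difference can be read. The labels do not name the arm that was transfected. RefSeq listed 1 mature product of miR-489, at chr7:93483947-93483968 on the minus strand. It listed 2 of miR-504, the 5p arm at chrX:138667760-138667781 and the 3p arm at chrX:138667724-138667744, both on the minus strand. The 3 sequences had 3 different seeds.
hsa-miR-489-3p: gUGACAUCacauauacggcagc
hsa-miR-504-5p: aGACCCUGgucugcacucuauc
hsa-miR-504-3p: gGGAGUGCagggcaggguuuc

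On the 4 arrays the Cy3 signal was well above background, by the mark of the scanner software, for 58.2% to 59.2% of spots, and the Cy5 signal for 61.2% to 62.6%. Ratios are log2 of background-subtracted Cy5 over Cy3, with the array median set to 0. They were higher than 0 where the miRNA transfectant gave more signal. All 7 squamous epithelial markers on the array (KRT5, KRT14, KRT17, TP63 under the name TP73L, CDH1, DSG3 and SFN) were well above background in Cy3 on all 4 arrays, with summed net signals of 60470 and 45222 in FaDu and of 78670 and 81429 in HSC3. Markers of other cell types were so on all 4 arrays for 0 of 5 fibroblast genes, 0 of 3 endothelial genes and 1 of 3 leukocyte genes (CD14), while PTPRC and CD3E were so on 0 arrays. PTPN11, a tyrosine phosphatase gene, was used here as a check on the miR-489 label. The study had picked it from genes lower in FaDu after miR-489, so that its FaDu ratio is no separate check. On the brightest of its 4 probes (A_32_P61757), PTPN11 gave ratios of −3.25 in FaDu and −3.21 in HSC3 after miR-489. After miR-504 it gave −1.28 and −1.04. In the limma fit over both lines, its other 3 probes were at −2.22, −1.52 and −1.22 after miR-489. They were at −1.21, −1.22 and 0.32 in the same order after miR-504, so that 1 probe (A_23_P99027) rose after miR-504 (adjusted p = 0.047 by limma).

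TGFB1, TGFBR2, SMAD2, SMAD3, SKIL and TGFBI, 6 of the 10, had a brightest probe well above background in both channels on all 4 arrays. The other 4 (TGFB2, TGFBR1, SMAD4 and SMAD7) did not. By probe, 9 of the 15 met this condition, and only these entered the tests across arrays.

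Of the ligands, TGFB1 gave more signal in every miRNA transfectant than in its control, and the TGFB2 control signal was not well above background on any array. The TGFB1 probe was printed as 10 spots, of which 9 or 10 were used. Its net Cy3 and Cy5 signals were 201 and 727 on the FaDu miR-489 array, and 213 and 767 on the FaDu miR-504 array. They were 245 and 800 on the HSC3 miR-489 array, and 386 and 1234 on the HSC3 miR-504 array. The log2 ratios were 1.27 ± 0.0831 and 1.20 ± 0.0657 in FaDu and 1.13 ± 0.0440 and 1.24 ± 0.0675 in HSC3, after miR-489 and miR-504, respectively (SD over spots). These are 2.42, 2.30, 2.19 and 2.36-fold, and the values of the 4 arrays lay within 0.15 of one another.

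TGFB1 was the only one of the 10 genes past 2-fold on any array, and it was higher on each of the 4. It was 1 of the 7 genes with Cy5 well above background on the FaDu miR-489 array, where 2.9% of all genes so measured were at least 2-fold higher, and 1 of 7 on the FaDu miR-504 array (2.37% of all genes). It was 1 of 10 on the HSC3 miR-489 array (2.77%) and 1 of 9 on the HSC3 miR-504 array (2.03%). No gene of the 10 was at least 2-fold lower, among 6, 6, 9 and 8 with Cy3 well above background, where 8.74%, 5.89%, 7.96% and 5% of all genes were lower on the arrays in the same order. Over both lines, limma gave a rise of TGFB1 of 1.20 (SE 0.0817) after miR-489 and of 1.22 (SE 0.0817) after miR-504 on the log2 scale, with adjusted p = 0.00089 and 0.0013 by limma with Benjamini-Hochberg adjustment. Since the miRNA transfectant was in Cy5 on all 4 arrays, a dye effect of this probe and an effect of transfection with either miRNA cannot be told apart.

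**Figure D1:**
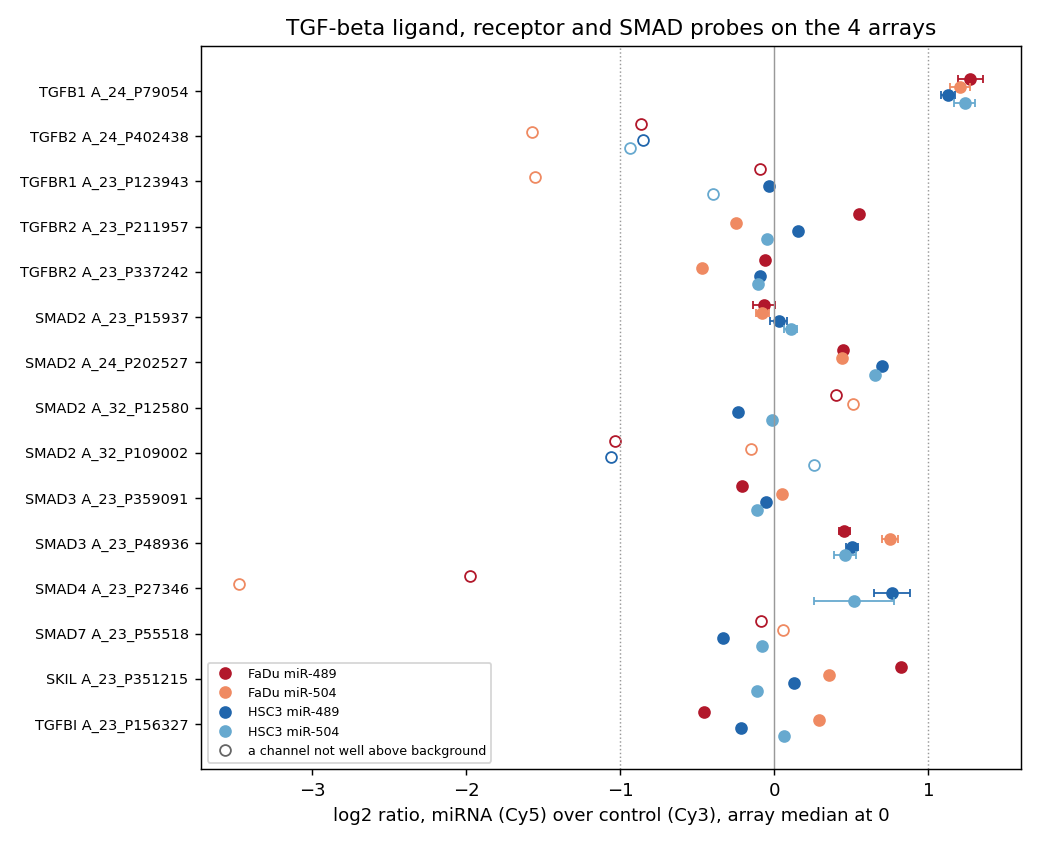
Log2 ratio of the miRNA transfectant (Cy5) over the control (Cy3) for the 15 probes (rows), with the array median at 0 and 1 point per array; bars are the SD over replicate spots where there were more than 2 and both channels were well above background, and dotted lines mark 2-fold. The 4 TGFB1 points lie to the right of the 2-fold line, and the open points, where a channel was not well above background, hold all values under −1.

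For TGFB2 the net Cy3 signals were 22 and 19 in FaDu and 29 and 29 in HSC3. None was well above background, and the Cy5 signal of 24 on the HSC3 miR-489 array was the only one that was. No ratio is given for TGFB2 for this reason.

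The type II receptor TGFBR2 gave a higher ratio after miR-489 than after miR-504 in FaDu on its bright probe. The net signals of this probe (A_23_P211957) in FaDu were 1352 in Cy3 and 2955 in Cy5 on the miR-489 array, and 1209 and 1594.5 on the miR-504 array. In HSC3 they were 6243.5 and 10342 on the miR-489 array, and 5493.5 and 7210 on the miR-504 array. The ratios were 0.55 after miR-489 and −0.25 after miR-504 in FaDu, and 0.15 and −0.05 in HSC3. In each line the ratio was higher after miR-489. Over both lines the ratio of this probe after miR-489 was 0.35 (SE 0.123, limma adjusted p = 0.058). It passed with normexp background correction (0.39, limma adjusted p = 0.016) and without background subtraction (0.49, limma adjusted p = 0.0071). It did not pass in the other fits on all arrays. Among them were loess (0.19, limma adjusted p = 0.24) and the deposited log ratios (0.15, limma adjusted p = 0.39). The estimate was 0.55 without the HSC3 miR-489 array and 0.15 without the FaDu miR-489 array, each the value of the remaining miR-489 array alone. The dimmer probe A_23_P337242 gave −0.06 and −0.47 in FaDu and −0.09 and −0.11 in HSC3. The type I receptor TGFBR1 had net Cy3 signals of 12.5 and 15 in FaDu, neither well above background, and of 35 and 37 in HSC3, of which only the first was. On that array its ratio was −0.03.

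The receptor-regulated SMADs gave different answers by probe. SMAD2 was read by 4 probes. The brightest, printed as 10 spots (A_23_P15937), had net Cy3 signals of 906, 861, 601 and 680 on the FaDu arrays of miR-489 and miR-504 and the HSC3 arrays of miR-489 and miR-504. Its ratios in the same order were −0.07, −0.08, 0.03 and 0.10, with SDs over spots of 0.0741, 0.0418, 0.0544 and 0.0447, so that they lay near 0. The second probe, A_24_P202527, gave 0.45, 0.44, 0.70 and 0.65. The other 2 probes were dim, with Cy3 not well above background in FaDu.

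SMAD3 was read by 2 probes, which also disagreed. The single spot of A_23_P359091 gave ratios of −0.21, 0.05, −0.06 and −0.12, in the same order of arrays. The 10 spots of A_23_P48936 gave 0.45, 0.75, 0.51 and 0.46, with SDs of 0.0348, 0.0517, 0.0379 and 0.0727. For each of these genes the gap between probes was larger than the SD over spots.

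In the limma test against the control, SMAD2 probe A_24_P202527 rose by 0.57 (SE 0.104, adjusted p = 0.0075) after miR-489 and by 0.54 (SE 0.104, adjusted p = 0.011) after miR-504. SMAD3 probe A_23_P48936 rose by 0.48 (SE 0.0995, adjusted p = 0.012) and by 0.60 (SE 0.0995, adjusted p = 0.0070). The brightest probe of SMAD2 was at −0.02 and 0.01 and that of SMAD3 at −0.13 and −0.03, none of which passed. The SMAD2 and SMAD3 rises were no longer called when dim probes were kept in the fit (adjusted p = 0.065 to 0.079), and each of the 4 was lost without at least 1 of the arrays of its miRNA (adjusted p = 0.053 to 0.11 where lost). Among the 9 probes tested, 3 rose after miR-489 and 3 after miR-504, where 30.9% and 26.7% of all 20914 probes rose. With TGFBI, which fell after miR-489 (1 of 9, against 26.3% of all probes), 4 of 9 changed after miR-489, where 57.2% of all probes did, and 3 of 9 after miR-504, where 49.8% did. The fit took the 2 cell lines as replicates of a miRNA, so that its p-values measure the spread between 2 lines. In all these tests against the control the miRNA transfectant was in Cy5. A dye effect of a probe and an effect of transfection therefore cannot be told apart.

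SMAD4, the partner shared by the receptor-regulated SMADs, gave signal in HSC3 and not in FaDu. Its 1 probe was printed as 10 spots, of which 8 or 9 were used on each array. In FaDu the net Cy3 signals were 14.6 and 12.3 and the net Cy5 signals 5.54 and 1.72, and 0 spots were well above background in either channel. In HSC3 the net Cy3 signals were 49.1 and 54.7 and the net Cy5 signals 124 and 106, and every spot used was well above background in both channels. The 2 lines did not overlap in any channel. In HSC3 the ratios were 0.76 ± 0.116 after miR-489 and 0.52 ± 0.258 after miR-504 (SD over spots), which differ by less than the larger of these SDs. No ratio is given for FaDu.

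Of the inhibitors, SKIL did not pass the test after either miRNA, and SMAD7 was too dim in FaDu to enter it. SMAD7 had net Cy3 signals of 24.5 and 24 in FaDu, not well above background, and of 90.5 and 122.5 in HSC3, where its ratios were −0.34 after miR-489 and −0.08 after miR-504. SKIL had net Cy3 signals of 159 and 137 in FaDu and of 55.5 and 69.5 in HSC3, and net Cy5 signals of 420.5, 274.5, 90.5 and 87. Its ratios were 0.82 and 0.36 in FaDu and 0.13 and −0.12 in HSC3, so that the value after miR-489 was the higher in each line. Over both lines the SKIL ratio after miR-489 was 0.48 (SE 0.199, limma adjusted p = 0.092). It passed with loess normalisation (0.61, limma adjusted p = 0.0079) and with the deposited log ratios (0.67, limma adjusted p = 0.0043). It did not pass in the other fits on all arrays. Among them were no background subtraction (0.31, limma adjusted p = 0.18) and dim probes kept (0.48, limma adjusted p = 0.22). The estimate was 0.82 without the HSC3 miR-489 array and 0.13 without the FaDu miR-489 array, each the value of the remaining miR-489 array alone.

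TGFBI, the induced matrix protein, was the only one of the tested genes to fall against the control. Its ratios were −0.46 after miR-489 and 0.29 after miR-504 in FaDu, and −0.22 and 0.06 in HSC3, negative after miR-489 and positive after miR-504 in each line. The fall after miR-489 was 0.34 on the log2 scale (a change of −0.34, SE 0.104, adjusted p = 0.040 by limma with Benjamini-Hochberg adjustment). It was no longer called without background subtraction (−0.18, adjusted p = 0.15), when dim probes were kept in the fit (adjusted p = 0.14) or without any 1 of the 4 arrays (adjusted p = 0.054 to 0.24).

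Each array was then used to compare miR-489 with miR-504 within a line, a difference in which a dye effect of a probe that is the same on all arrays is removed. No gene of the 10 differed 2-fold in either line. In FaDu 6 genes could be compared and 0 were past 2-fold, where 2.54% of all genes were lower by that much after miR-489 than after miR-504 and 0.999% higher. In HSC3 it was 0 of 8, where 1.8% and 0.646% of all genes were. Past 2-fold the same way in both lines were 0 of 6 genes, where 1.05% of all genes were. In FaDu the largest differences were those of TGFBR2 (0.80 in FaDu and 0.20 in HSC3) and of TGFBI (−0.74 and −0.28), followed by SKIL (0.47 and 0.24). For all 3 genes the sign was the same in each line and the size was larger in FaDu. They were taken for their size in FaDu, a choice that by itself favours a larger value there. With 1 array per condition the difference between the lines was not tested. TGFB1 differed by 0.07 in FaDu and −0.11 in HSC3.

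Across both lines, limma called 0 of the 9 probes for miR-489 against miR-504, where 1.06% of all probes (222 of 20914) were called, 0.755% as lower and 0.306% as higher after miR-489. TGFBI (−0.51, SE 0.147) and the bright TGFBR2 probe (0.50, SE 0.174) had adjusted p = 0.18 and 0.23 by limma. They were the only 2 of the 9 probes under 0.05 before adjustment. TGFB1 was at −0.02 (SE 0.116, adjusted p = 0.95). With the cell line as a block, 0 of the 9 probes were called and 376 of all probes. A p above the threshold does not show that the miRNAs act alike on these genes.

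**Figure D2:**
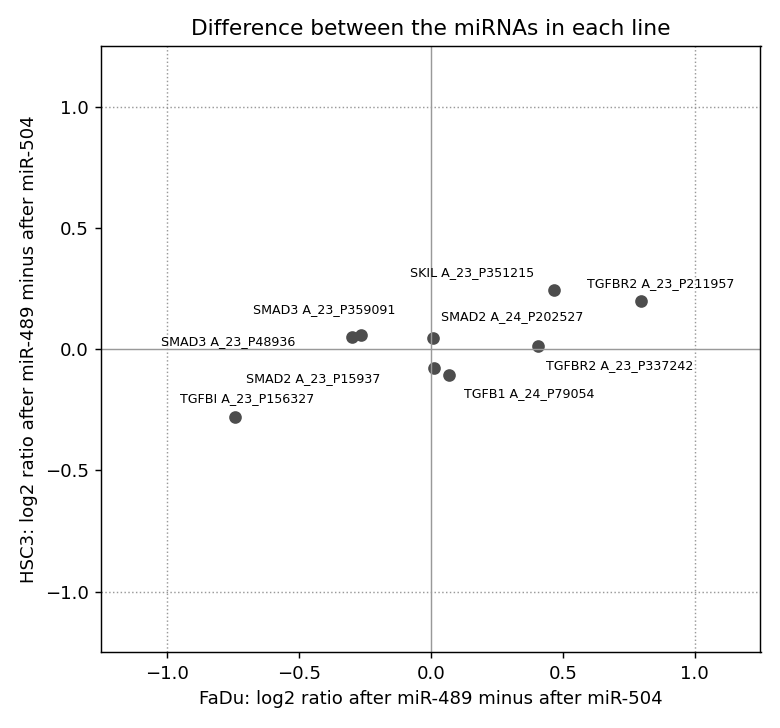
Log2 ratio after miR-489 minus that after miR-504 in FaDu (x axis) and in HSC3 (y axis), 1 point for each of the 9 probes measured in both dyes on all 4 arrays, with dotted lines at 2-fold. All 9 points lie inside the 2-fold lines; TGFBI is lowest on both axes, and TGFBR2 (A_23_P211957) and SKIL are positive on both.

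The larger differences lay between the lines themselves. In the control transfectants, TGFBI, TGFBR2, SMAD7 and SMAD4 gave more signal in HSC3 and SKIL in FaDu. The Cy3 signals were set relative to the median of probes well above background on all arrays, and a gene was counted when the means of the lines differed at least 2-fold and their arrays did not overlap. Of 8 genes with signal in HSC3, 4 were higher there, where 13% of all genes were. Of 6 genes with signal in FaDu, 1 was higher there, where 14.4% were. SMAD4 and SMAD7 entered the former count through their HSC3 signal alone, since Cy3 was well above background for them on 0 of the FaDu arrays. Of the 6 genes well above background in Cy3 on all 4 arrays, 2 were higher in HSC3 (TGFBI and TGFBR2, against 10.2% of all such genes) and 1 in FaDu (SKIL, against 11.6%). The median difference between the 2 arrays of a line was 0.15 in FaDu and 0.19 in HSC3 on the log2 scale. No test was made because the control RNAs of a line may be the same RNA. In RNA of whole cultures, fewer expressing cells and less RNA per cell cannot be told apart.

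TGFBI differed most. Its net Cy3 signals were 1586 and 1149 in FaDu against 34698 and 24693 in HSC3, an 18.6-fold difference after scaling. In the Cy5 channel, which held separately transfected cells, the net signals were 1727.5 and 2198.5 against 44506 and 34932 and the difference was 18.4-fold. TGFBR2 was 3.94-fold higher in HSC3 on its bright probe and 2.79-fold on the dim one, and it was 3.61-fold and 3.07-fold higher in Cy5. For both genes each array of HSC3 lay above each array of FaDu, in both channels.

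SMAD7 was 3.73-fold higher in HSC3 in the Cy3 channel relative to FaDu signals that were not well above background, and 3.21-fold higher in Cy5, where it was measured in both lines. SMAD4 was 2.10-fold higher in Cy3 when FaDu was set at the smallest signal that the software marked as well above background on each array. This is not a firm limit, because a Cy3 signal of 32 was left unmarked in FaDu on another of the 15 probes. The SMAD4 difference so set was 2-fold or more with all 4 arrays but −0.99 on the log2 scale without the FaDu miR-504 array. With normexp background correction the differences of SMAD4 and SMAD7 were −0.44 and −0.85, so that neither was counted.

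SKIL was 2.77-fold higher in FaDu in Cy3 and 4.22-fold in Cy5. SMAD2 was 1.61-fold higher in FaDu on its brightest probe and 2.29-fold on A_24_P202527. SMAD3 was 1.02-fold and 1.41-fold higher in FaDu on its 2 probes, and TGFB1 was 1.28-fold higher in HSC3. The SMAD3 brightest probe had overlapping arrays in the 2 lines.

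**Figure D3:**
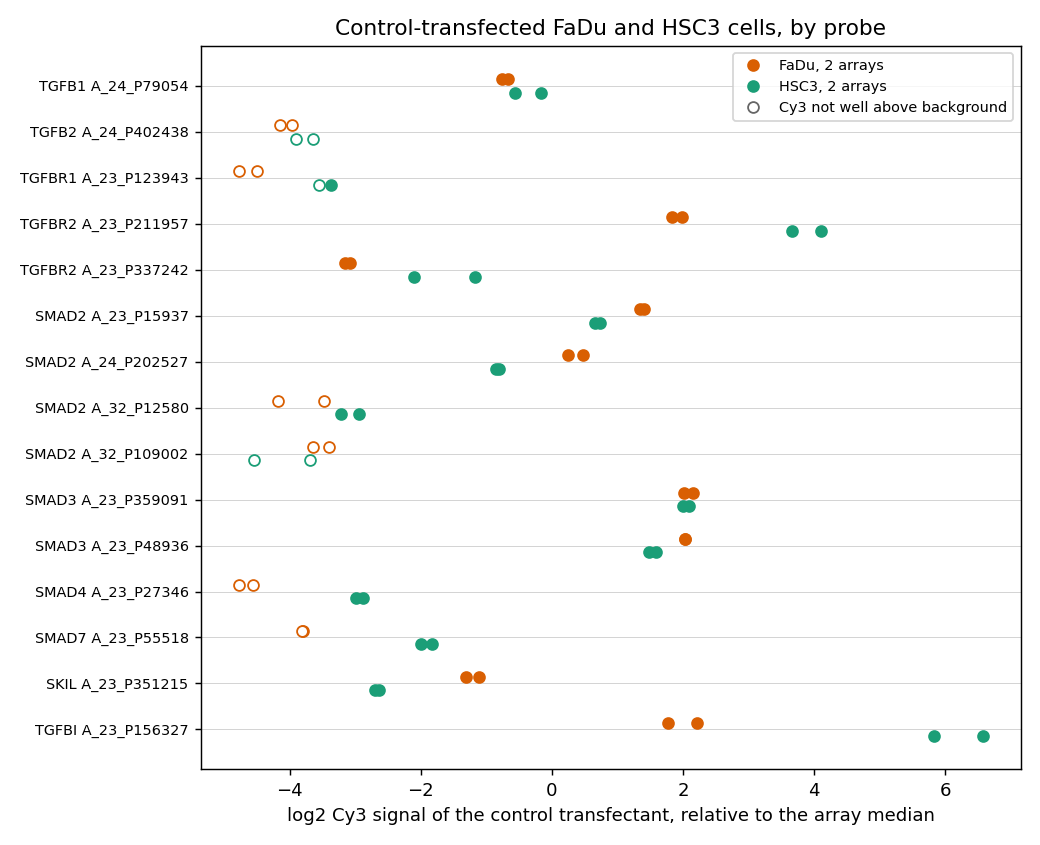
Log2 Cy3 signal of the control transfectants for the 15 probes (rows), relative to the array median, with 1 point per array; open points were not well above background. TGFBI, TGFBR2, SMAD4 and SMAD7 lie further right in HSC3 (green) and SKIL further right in FaDu (orange); levels are to be compared along a row and not between rows.

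The lack of SMAD4 signal in FaDu was shared by genes next to it. The genes up to 6 places on either side of SMAD4 in RefSeq order (GRCh38.p14) were looked up after the SMAD4 values had been seen. Of the 12 genes in this window with a probe, SMAD4 included, 8 had a probe well above background in Cy3 on both HSC3 arrays. In FaDu 4 of these 8 were well above background and 4 were not, in either channel. SMAD4, for which the window was drawn, is counted among the latter, and genes entered through their HSC3 signal alone. The 4 without signal in FaDu were consecutive among the genes of the window: ME2, a mitochondrial malic enzyme, ELAC1, a tRNA-processing enzyme, SMAD4 itself, and MEX3C (on the array as RKHD2), an RNA-binding protein.

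Their Cy3 signals were far apart in the lines. The brightest MEX3C probe had net signals of 14.5 and 18.5 in FaDu and of 805 and 1168.5 in HSC3. One ME2 probe had 22.5 and 14 against 128.5 and 174, and the other had 7.5 and 14 against 100 and 151. ELAC1 had 14.5 and 16 against 85 and 68.5. Further out on one side, CXXC1 had 205 and 195 in FaDu against 197 and 324.5 in HSC3. On the other side MBD2 had 3852.5 and 3928 against 5936.5 and 8052. Both were well above background in both lines, as were SKA1 and POLI. MAPK4 and MRO, between SKA1 and ME2, and DCC, next to MEX3C, were not well above background in either line. LOC124904304, between DCC and MBD2, had no matched probe. The ends of the stretch without signal in FaDu therefore cannot be placed. Of the 22572 probes with Cy3 well above background on both HSC3 arrays, 626 (2.77%) were not well above background in either channel of either FaDu array. This share counts probes, whereas the window was counted by gene. Its 4 genes without signal in FaDu, SMAD4 included, had 5 such probes. The reason for the shared lack of signal was not tested.

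**Figure D4:**
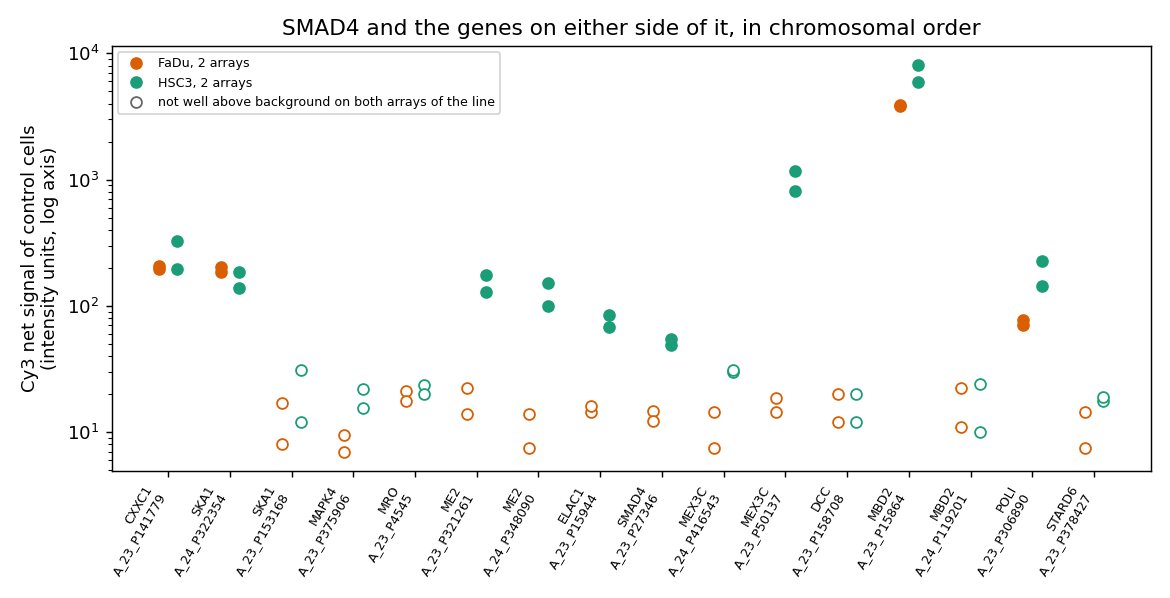
Net Cy3 signal of the control transfectants (log axis, intensity units) for each probe of SMAD4 and of the genes on either side of it, in RefSeq order, with 1 point per array; open points belong to a line in which the probe was not well above background on both arrays. From ME2 to MEX3C, the FaDu points are open and under 23 while the HSC3 points of 5 probes are filled and at 49 or more.

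Of 50 other genes of the TGF-beta and BMP pathways, 2 were past 2-fold on both arrays of a miRNA, PPM1A, a phosphatase for the receptor-regulated SMADs, and ACVR2B, a type II activin receptor. They were 1 of 40 genes measured on both miR-489 arrays (5.76% of all genes moved so) and 1 of 43 on both miR-504 arrays (3.98%). PPM1A was higher after miR-489, with ratios of 1.09 in FaDu and 1.20 in HSC3 (1.15, SE 0.0840, limma adjusted p = 0.00095), and it also rose after miR-504 (0.63 and 0.76). ACVR2B was lower after miR-504, with −1.14 in FaDu and −1.34 in HSC3 (−1.24, SE 0.0866, limma adjusted p = 0.0013), and it was at −0.88 and −0.87 after miR-489. A second probe of PPM1A gave 0.76 after miR-489 and 0.13 after miR-504 in the fit, and a second probe of ACVR2B gave −0.52 and −0.85. Neither gene differed between the miRNAs after adjustment (adjusted p = 0.15 and 0.22 by limma). As for TGFB1, a dye effect of these probes and an effect of transfection with either miRNA cannot be told apart. No gene of the list was past 2-fold between the miRNAs in both lines (0 of 37 that could be compared, where 1.05% of all genes were). In FaDu alone 2 of 40 were lower after miR-489 (RNF111 and TGIF), where 2.54% of all genes were. There 3 were higher (CTGF, FST and SKI), where 0.999% of all genes were. In HSC3 alone 0 of 41 were lower (1.8% of all genes) and 1 higher (TGIF2, against 0.646%). These genes were named after their values were seen, and each difference rests on 1 array per miRNA.

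By probe, 19 of the list's 55 tested probes rose and 10 fell after miR-489, and 16 rose and 13 fell after miR-504. These shares can be read against the 30.9%, 26.3%, 26.7% and 23.1% of all probes. Between the miRNAs 1 of 55 was called, where 1.06% of all probes (222 of 20914) were. This was a probe of RNF111, a ubiquitin ligase that removes inhibitors of the pathway, whose name was taken after its values were seen. RNF111 ratios were −0.45 after miR-489 and 0.84 after miR-504 in FaDu, and −0.38 and 0.54 in HSC3, a difference of −1.11 (SE 0.143, adjusted p = 0.047 by limma). It was not called without any 1 of the 4 arrays or with dim probes kept, when 0 of all probes were, or with mean spot intensities. With the cell line as a block, 3 of the 55 probes were called, where 376 of all 20914 probes were. These were RNF111 (adjusted p = 0.043), THBS1 A_24_P142118 (0.84, adjusted p = 0.049) and TMEPAI A_24_P413126 (−0.99, adjusted p = 0.048), by limma. Without the block, THBS1 A_24_P142118 and TMEPAI A_24_P413126 had adjusted p = 0.090 and 0.058 by limma. With normexp or without background subtraction 4 were called, these 3 and a second probe of THBS1, where 672 and 495 of all probes were.

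In the control cells, 16 of 41 genes of the list with signal in HSC3 were higher there (13% of all genes) and 6 of 40 with signal in FaDu were higher there (14.4%). Of the 37 genes with Cy3 well above background on all 4 arrays, 13 were higher in HSC3 (10.2% of all such genes) and 4 in FaDu (11.6%). The counts by role split the 16 and the 6 genes of the first counts. Their totals keep genes without signal, so that they are not shares like the 13% and 14.4%. Among 10 target genes, 5 were higher in HSC3 (CDKN1A, CDKN2B, CTGF, FN1 and PTHLH) and 1 in FaDu (ID1, a BMP target). Among 14 ligands and binding proteins 8 were higher in HSC3 and 3 in FaDu. Of 9 receptors 1 was higher in HSC3 (BMPR2) and 2 in FaDu (BAMBI and ENG), and of 13 regulators 2 were higher in HSC3 (NEDD4L and SMURF2). None of the 4 other SMADs was counted (0 in each direction). Cy3 was well above background on all 4 arrays for 8 of the 10 targets, 8 of the 14 ligands and binding proteins and 6 of the 9 receptors. Of the genes counted by role, INHBA, INHBB and LTBP1 (higher in HSC3) and BMP7 and ENG (higher in FaDu) were not among these.

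The 5 genes with the largest differences, of those with signal on every array, included 2 that were higher in FaDu. GDF15, a distant member of the TGF-beta family, had net Cy3 signals of 4690 and 5931.5 in FaDu and of 257 and 119 in HSC3 (35.1-fold). BAMBI, a decoy receptor, had 414 and 847 against 56.5 and 75.5 (10.6-fold). The others were higher in HSC3. FST, which binds activin, had 1266.5 and 1459.5 in FaDu against 16530 and 23785 in HSC3 (12.5-fold). PTHLH, a parathyroid hormone-like factor, had 167.5 and 152.5 against 2663.5 and 1659 (11.3-fold). THBS1, a matrix protein that can activate latent TGF-beta, had 401.5 and 409 against 4221 and 4581 (9.32-fold). For all 5 genes the arrays of the lines did not overlap, which follows largely from choosing the largest differences.

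**Figure D5:**
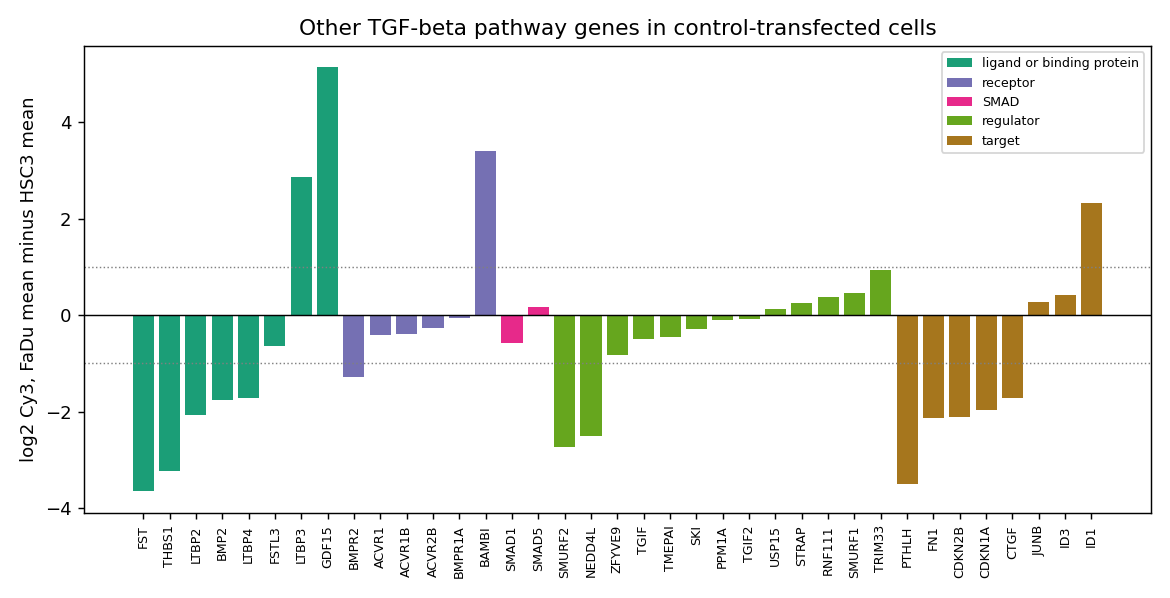
Difference in log2 Cy3 signal between control-transfected FaDu and HSC3 cells (FaDu mean minus HSC3 mean, 2 arrays each) for the 37 other pathway genes with Cy3 well above background on all 4 arrays, coloured by role, with dotted lines at 2-fold. Bars below 0, however short, are higher in HSC3: 25 of the 37 are, among them FST and PTHLH. Of the 15604 genes measured in both dyes on all 4 arrays, 7039 lay below 0. GDF15 and BAMBI are the tallest above 0.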

How the data were processed

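Total RNA of control and miRNA transfectants was compared on 4 two-colour Agilent arrays. The authors deposited scanner output of Feature Extraction 9.5.3.1 with median and mean intensities per spot and background, and with a log10 ratio that the software had normalised for dye. The deposited table of processed values held those log10 ratios unchanged (differences of 0). The deposited marks (0 or 1, a score) for signal well above background and for outliers were used as filters. The genome build of the probes is not given in the sources used here.

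From these, log2 ratios of background-subtracted median intensities (net signal at least 1) were centred on the median of probes measured in both dyes (0.58, 0.65, 0.58 and 0.44 on the log2 scale). Outlier spots (118 to 137 per array) were left out, 0 spots were saturated, and replicate spots were averaged (median SD 0.052 to 0.059). A gene took its brightest probe by Cy3. A gene counted as lower needed Cy3, and as higher Cy5, well above background in at least 50% of its spots, and the threshold was 2-fold. Probes well above background in Cy3 on all 4 arrays (20914) were fitted with limma 3.58.1 in R 4.3.3 (2 residual degrees of freedom, adjusted p under 0.05 by Benjamini-Hochberg), which was tested on simulated data. The number of arrays limits the precision. Samples sharing a cell line were taken as pairs, as a block in an alternative (correlation of their deviations 0.14). The accessions of 13 of the 15 probes matched RefSeq, all with the same symbol.

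The members and gene lists were chosen with earlier results of these data known. 1 gene of the pathway list is not reported here. All members were named, as were other pathway genes past 2-fold on both arrays of a miRNA or in both lines between the miRNAs, the 5 largest Cy3 differences between lines, and PTPN11. Alternatives were normexp (offset 50), no background subtraction, mean intensity, loess (span 0.3), the deposited log ratios, other filters on dim probes, all probes of a gene, a 1.5-fold threshold, quantile and 75th percentile scaling of Cy3, the block, and leaving out each array for the limma fits. The Cy5 channel and leaving out each array for the line comparison were chosen after seeing the data. Counts and plots were made in Python 3.11.15 with numpy 2.4.6, pandas 2.3.3 and matplotlib 3.10.9.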

Additional observations from a re-analysis of the deposited data

How the results depend on the processing

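TGFB1 was past 2-fold on all 4 arrays and called against the control for both miRNAs under every alternative run for it, and 0 member probes differed between miR-489 and miR-504 in any fit, with the cell line as a block or without 1 array. Over all probes the count for miR-489 against miR-504 was 222, against 672 with normexp, 495 without background subtraction, 345 with loess, 390 with the deposited log ratios, 376 with the block, and 0 when dim probes were kept or any 1 array was left out (at an unadjusted p under 0.05, 3235 with dim probes kept and 2051 to 3699 with 1 array left out). For miR-504 against control it was 10410, against 5444 with dim probes kept and 3335 and 4072 without the FaDu and the HSC3 miR-504 array.

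Members past 2-fold were 1 on each array. On the FaDu miR-489 array 2 were with the deposited log ratios, with no filter on dim probes or at 1.5-fold, and on the FaDu miR-504 array 4 were with no filter. On the HSC3 miR-489 array 2 were with loess or at 1.5-fold and 3 with the deposited log ratios. Between the miRNAs in FaDu, 0 became 2 with no filter (TGFBR1 and SMAD4, both dim) and 2 at 1.5-fold (TGFBR2 and TGFBI). The 5 members differing between the lines became 3 with normexp and 2 without background subtraction, both of which leave dim signals closer to each other, and were 4 to 5 with 1 array left out. These fold counts carry no share of all genes. Member probes called against control after miR-489 were 4 (11953 of all 20914 probes). They were 6 with loess (11344, adding SKIL and SMAD3 A_23_P359091), 5 with normexp (12793, TGFBR2 A_23_P211957) and 5 with the deposited log ratios (11767, SKIL). They were 2 with dim probes kept (8910 of 40981), TGFB1 and the dim SMAD2 A_32_P109002 (−1.05, adjusted p = 0.041 by limma). After miR-504 they went from 3 to 1 with dim probes kept and to 5 without background subtraction (12141 of all). For each miRNA fewer were called without 1 of its arrays.

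Of fitted values not called as reported, beside TGFBR2 A_23_P211957 and SKIL after miR-489 (above), SMAD3 A_23_P359091 after miR-489 was called with loess (−0.27), TGFBI (0.30) and TGFBR2 A_23_P337242 (−0.42) after miR-504 without background subtraction, and the latter also with mean intensities (−0.40). Signs of fitted values turned only where not called as reported, and none was called with the other sign. On single arrays, with the deposited log ratios, the dim probes of SMAD7 (FaDu miR-489, −0.08 to 1.36) and TGFB2 (HSC3 miR-489, −0.85 to 1.14) turned sign and were past 2-fold. Against control after miR-489, SMAD2 A_23_P15937 became 0.022 with normexp and 0.092 without background subtraction, SMAD3 A_23_P359091 became 0.0056 without background subtraction, and TGFBR2 A_23_P337242 became 0.14 with loess and 0.15 with the deposited log ratios. After miR-504, SMAD3 A_23_P359091 became 0.0059 with normexp and 0.094 without background subtraction, SMAD2 A_23_P15937 −0.095 with loess and −0.088 with the deposited log ratios, TGFBR2 A_23_P337242 0.011 with loess, and TGFBI −0.062 with the deposited log ratios. Between the miRNAs TGFB1 became 0.0011 with mean intensities. With 1 array left out, the ranges that crossed 0 were −0.092 to 0.053 for TGFB1, −0.27 to 0.022 for SMAD3 A_23_P48936, −0.12 to 0.059 for SMAD2 A_23_P15937 and −0.097 to 0.15 for SMAD2 A_24_P202527 between the miRNAs. They were −0.068 to 0.028 for SMAD2 A_23_P15937 after miR-489, and −0.079 to 0.10 for SMAD2 A_23_P15937, −0.12 to 0.052 for SMAD3 A_23_P359091 and −0.12 to 0.36 for SKIL after miR-504. The causes were not tested.

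The signal over background limits TGFB2, TGFBR1, SMAD4 and SMAD7. Where 1 array of a miRNA was left out, the lone array was assumed to vary like the other miRNA's pair.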

Other observations

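Among ligands outside the naming rule, chosen after their values were seen, INHBA and BMP7 differed most between the lines. INHBA, a subunit of activin A, had net Cy3 signals of 23 (not well above background) and 44 in control-transfected FaDu cells against 8689 and 15724.5 in HSC3 cells. BMP7, a bone morphogenetic protein, had 2309.5 and 2184.5 in FaDu against 31.5 (not well above background) and 43 in HSC3. The arrays of the lines did not overlap for either gene, which follows largely from choosing them for their difference. No fold is given because 1 array of the dim line was not measured.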
